A study of Mus musculus with 22 samples.

Results

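The 10 genes described here code for hedgehog ligands (Shh, Ihh), their receptor (Ptch1), a secreted and membrane-bound ligand antagonist (Hhip), 2 co-receptors (Boc, Cdon), the signal transducer (Smo) and the GLI transcription factors (Gli1, Gli2, Gli3). They were taken by name from the array's annotation, using for each gene the probe set annotated to it alone, and each had exactly 1 such probe set. Of the 10, 9 were bright enough to be tested, among 19050 genes tested in all, and Hhip was too dim. RNA came from urogenital sinus epithelium, which forms prostatic buds in male fetuses, of C57BL/6J mice at the embryonic age E16.75. The 22 Affymetrix whole-transcript arrays held 6 male control, 6 male knockout, 5 female control and 5 female knockout samples.

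Knockout fetuses were ShhCre/+; Sox9fl/fl, so Cre recombinase was made from the Shh locus and deleted Sox9, a transcription factor gene, in cells that express Shh. Controls were littermates of genotype Shh+/+; Sox9+/fl, so a floxed Sox9 allele was carried in every group and Cre in the knockouts only. ShhCre alleles in common use are insertions into Shh, and the labels do not say which one was used. All knockouts and no controls therefore differed at Shh as well as at Sox9, and for every gene below the effects of Sox9 deletion and of the ShhCre allele cannot be told apart. The replicates are described as biological, with no statement of whether an array held a single fetus or several, so p-values measure the spread between these arrays.

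In hedgehog signalling a secreted ligand binds Ptch1, which otherwise keeps Smo inactive. Active Smo acts at the primary cilium to shift Gli2 and Gli3 from repressors towards activators. Gli1, Ptch1 and Hhip are transcribed in response, so their RNAs are widely used as readouts. In the urogenital sinus Shh is made by the epithelium, and the surrounding mesenchyme is the best known responder. The samples here were epithelium from which the mesenchyme had been dissected away after digestion with trypsin and collagenase.

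Values are log2 expression values as deposited. A difference of 1 is a doubling, and the median over 23 background probe sets was 3.19. Probe sets differ in how strongly they bind, so a gene is compared between groups and never with another gene. A gene was called where its Benjamini-Hochberg adjusted p, over the 19050 genes tested, was under 0.05 in limma's moderated two-sided test. Means are given with their SD and differences with their standard error (SE).

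The tissue label was checked against markers. The 14 epithelial genes were all above the filter on dim probe sets, with a list mean between 11.09 and 11.27 on every array. Between the sexes 3 of the 14 were called as lower in control males, where 6.94% of all genes were called. In knockout males 2 were called as higher and 4 as lower, where 7.19% of all genes were called. Their part in the sex differences below was not tested. Of 12 mesenchyme genes with a probe set, Prrx1 and Postn were dim, and the list mean lay between 6.21 and 6.66 on 21 arrays. Male control 6 stood apart with a mesenchyme mean of 7.26, and 10 of the 12 genes were higher there than in any other male control. Its smooth muscle mean was 7.22, against 6.08 to 6.27 in the other 5 male controls. Sox9 was lower on every knockout array than on any control array of its sex. Its level was 9.33 ± 0.21 in male controls and 8.26 ± 0.14 in male knockouts (n = 6 each), and 8.89 ± 0.11 and 7.89 ± 0.09 in females (n = 5 each). It fell by 1.07 (SE 0.082) in males and by 1.00 (SE 0.089) in females, with limma adjusted p = 1.04e-07 and 2.28e-06. Whether its probes lie in the deleted part of the gene is not given in the sources used here.

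Ptch1 and Hhip are the classic feedback targets of the pathway, and the sequence before their start sites is shown because their values are set beside those of Shh below. RefSeq promoter windows (build GRCm38.p6) were found for 7 of the 10 genes, namely Ihh, Ptch1, Hhip, Cdon, Smo, Gli2 and Gli3. Each window is the 250 bases before the annotated start, printed 5′ to 3′ on the gene's strand. Capitals mark CCACCC or its reverse complement GGGTGG, the core letters of the GLI site. The Ptch1 window is chr13:63565736-63565985 on the minus strand, and the Hhip window is chr8:80058009-80058258 on the minus strand.
Ptch1: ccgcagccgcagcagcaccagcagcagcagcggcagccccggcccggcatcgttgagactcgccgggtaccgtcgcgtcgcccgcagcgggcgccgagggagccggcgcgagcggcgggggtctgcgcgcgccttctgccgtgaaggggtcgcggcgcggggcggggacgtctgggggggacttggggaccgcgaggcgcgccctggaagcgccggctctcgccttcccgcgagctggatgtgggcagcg
Hhip: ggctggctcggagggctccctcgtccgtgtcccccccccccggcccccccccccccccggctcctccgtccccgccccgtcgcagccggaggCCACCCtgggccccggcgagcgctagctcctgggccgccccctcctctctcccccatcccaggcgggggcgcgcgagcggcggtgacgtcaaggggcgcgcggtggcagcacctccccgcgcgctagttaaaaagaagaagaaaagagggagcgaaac
The Hhip window held the core once, at position -158 from the start, and the Ptch1 window did not hold it. In all, 5 of the 7 windows held the core, which 28.1% of 32851 RefSeq windows of this length hold. G or C made up 67.2 to 76% of those 5 windows, 78.4% of the Ptch1 window and 42.8% of the Cdon window. The share over all windows was not matched for this content. None of the 7 held the longer site GACCACCCA or its reverse complement TGGGTGGTC, which contains the core and is found in 0.225% of windows. None held the SOX motif CCATTGT or its reverse complement ACAATGG, found in 3.02% of windows. These are matches of letters, not measured binding sites.

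The main ligand fell in the knockout in both sexes, and no other hedgehog gene passed the test. Of the 9 genes tested, 1 was called in males, where 0.199% of all genes were called, 1 in females, where 0.0315% were, and 1 with the sexes averaged, where 0.247% were. In each case it was Shh, and no member was called as higher. The median difference over the 9 was -0.13 in males, -0.09 in females and -0.07 with the sexes averaged, against 0.01 over all genes in each comparison.

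Shh, the secreted ligand of this epithelium, ranged in male controls from 11.00 to 11.34 with a median of 11.25, and in male knockouts from 10.69 to 10.87 with a median of 10.76. In females the 5 controls read 10.48, 10.52, 10.97, 10.91 and 10.89, and the 5 knockouts 10.04, 10.09, 10.27, 10.18 and 10.39. Every knockout array was below every control array of its sex, and in females the nearest arrays were a knockout at 10.39 and a control at 10.48. The share of all genes with no overlap between knockouts and controls was 0.420% in males and 1.39% in females.

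Shh fell by 0.45 in males (SE 0.081, limma adjusted p = 0.00874), to 73.1% of the control level (95% interval 65.1 to 82.1%). It fell by 0.56 in females (SE 0.088, limma adjusted p = 0.0128), to 67.8% (59.7 to 77.0%). With the sexes averaged it fell by 0.51 (SE 0.060, limma adjusted p = 9.43e-05), and only 3 genes had a smaller p. An exact permutation of the arrays gave p = 0.00216 in males and 0.00794 in females, two-sided, in each case the smallest value these group sizes allow. Any gene without overlap gives these values, so they add nothing to the separation described above. In such bulk samples fewer Shh-expressing cells and less Shh RNA per cell cannot be told apart. The male call was lost with arrays weighted by quality (-0.41, adjusted p = 0.0517). The female call was lost in a model of the female arrays alone (adjusted p = 0.199), and without female control 3, female control 5, female knockout 1 or female knockout 4, where the difference was -0.51, -0.53, -0.52 and -0.56 and adjusted p ran from 0.0541 to 0.0734. Markers of other cells moved with the female comparison: all 7 tested urothelium genes and all 7 tested immune genes had higher estimates in female knockouts, with medians of 0.21 and 0.18, and none was called. The urothelium mean ran from 9.83 to 10.43 in female knockouts and from 9.64 to 10.08 in female controls, and the immune mean from 6.05 to 6.45 and from 6.07 to 6.17, with Ptprc dim. In the male comparison, with male control 6 included, 9 of 10 tested smooth muscle genes had lower estimates in knockouts (median -0.17). Of the 14 epithelial genes 3 did (median 0.02), and no gene of these 2 lists was called. The part of any of these markers in the Shh results was not tested.

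Genes beside Shh on its chromosome were not called in the knockout. The 5 listed neighbours of the locus (Rbm33, Cnpy1, Lmbr1, Nom1, Mnx1) were tested, and none was called in any comparison. Lmbr1, whose introns hold the limb enhancer of Shh, differed by -0.04 (SE 0.053) with the sexes averaged, Rbm33 by -0.02 (SE 0.037) and Cnpy1 by -0.03 (SE 0.061). Cnpy1 lay close to the filter on dim probe sets, with group means from 5.08 to 5.19. Rbm33 was lower on every female knockout array than on any female control array, but not in males. In females 1.39% of all genes had no overlap between these groups.

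Ihh, the Indian hedgehog ligand best known from cartilage and gut, was measured above the filter on all 22 arrays. Its level was 6.87 ± 0.22 in male controls, 6.65 ± 0.19 in male knockouts, 6.87 ± 0.30 in female controls and 6.74 ± 0.17 in female knockouts. Female controls read 6.61, 6.76, 7.16, 7.24 and 6.61, so this group alone spanned most of the range of the gene. The knockout difference was -0.23 (SE 0.12) in males and -0.13 (SE 0.13) in females, and the groups overlapped in both. With the sexes averaged it was -0.18 (95% interval -0.36 to 0.00, limma adjusted p = 0.700).

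**Figure D1:**
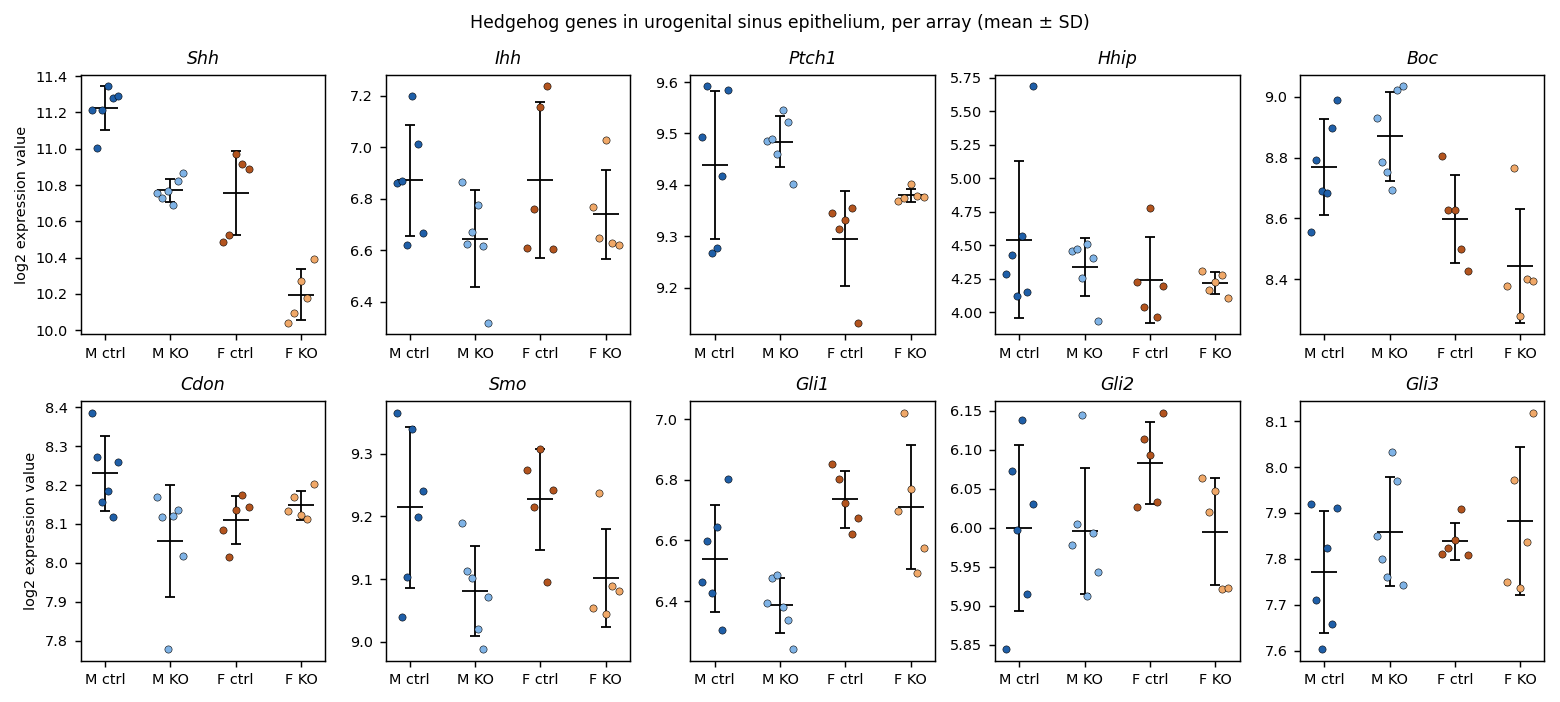
Log2 expression value (vertical axes, 1 scale per gene) of the 10 hedgehog genes on each of the 22 arrays, by group; points are arrays, horizontal lines group means and bars the SD (n = 6 male control, 6 male knockout, 5 female control, 5 female knockout). Shh steps down from control to knockout in both sexes, Gli1 lies lower in males, and male control 6 stands alone for Hhip at 5.69.

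Ptch1, receptor and textbook target, did not follow Shh. Male controls ran from 9.27 to 9.59 (median 9.46) and male knockouts from 9.40 to 9.55 (median 9.49), with the knockouts lying inside the range of the controls. Female controls read 9.34, 9.31, 9.33, 9.36 and 9.13, and female knockouts 9.37, 9.37, 9.40, 9.38 and 9.38. Each female knockout thus lay above each female control, by a small margin, opposite in direction to Shh. Groups without overlap were found for 1.39% of all genes in this comparison. The difference was 0.05 in males (SE 0.055, 95% interval -0.07 to 0.16; 0.07 without male control 6) and 0.08 in females (SE 0.060, interval -0.04 to 0.21), and neither was called. With the sexes averaged Ptch1 stood at 105% of control, with a 95% interval from 98.7 to 111%, while Shh stood at 70.4% (64.6 to 76.7%).

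Hhip, which binds and sequesters hedgehog ligands, exceeded the array's median on 1 of 22 arrays, male control 6. There it read 5.69, while the other male controls ran from 4.13 to 4.57 and the other 3 groups from 3.93 to 4.78. That array was also the one with the raised mesenchyme mean of 7.26. In a fit without the filter on dim probe sets the male difference was -0.20 (SE 0.19, 95% interval -0.60 to 0.19), and without male control 6 it was 0.03 (SE 0.12, interval -0.23 to 0.28). The female difference was -0.03 (interval -0.45 to 0.40). Changes of Hhip within these intervals are not excluded, and the intervals do not account for how dim the probe set was.

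The co-receptors Boc and Cdon, related cell-surface proteins that help present ligand to Ptch1, were not called in the knockout of either sex. Boc was 8.77 ± 0.16 in male controls, 8.87 ± 0.15 in male knockouts, 8.60 ± 0.14 in female controls and 8.44 ± 0.19 in female knockouts. Its knockout difference was 0.10 (SE 0.087) in males, or 0.15 without male control 6, and -0.15 (SE 0.094) in females, opposite in sign. Cdon ran from 8.12 to 8.39 in male controls and from 7.78 to 8.17 in male knockouts. In females the controls spanned 8.02 to 8.17 and the knockouts 8.11 to 8.20, the narrowest pair of groups of this gene. The male difference of Cdon was -0.17 (SE 0.058, unadjusted p = 0.00639, limma adjusted p = 0.498) and the female one 0.04 (SE 0.062).

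Smo, the membrane protein that carries the signal inward, had the second smallest p of the 9 genes with the sexes averaged. It ran from 9.04 to 9.37 in male controls and from 8.99 to 9.19 in male knockouts. The female controls read 9.27, 9.22, 9.31, 9.10 and 9.24, and the knockouts 9.05, 9.24, 9.04, 9.09 and 9.08. The groups overlapped in both sexes, in females through knockout 2 alone, at 9.24, since the other 4 knockouts lay below the lowest control. The difference was -0.13 in each sex (SE 0.056 in males, 0.062 in females) and -0.13 on average (SE 0.041, unadjusted p = 0.00471, limma adjusted p = 0.336), so it did not pass. The 95% interval of the average ran from 86.1 to 97.0% of control.

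Among the GLI factors, Gli1 is the activator that is itself induced by the signal, Gli2 the main activator and Gli3 the main repressor. Gli1 was 6.54 ± 0.18 in male controls and 6.39 ± 0.09 in male knockouts, a difference of -0.15 (SE 0.082, limma adjusted p = 0.830). Without male control 6 this was -0.10 (SE 0.079). In females it was 6.74 ± 0.09 in controls and 6.71 ± 0.20 in knockouts, a difference of -0.02 (SE 0.089). Gli2 was 6.00 in both male groups (SD 0.11 in controls and 0.08 in knockouts), and 6.08 ± 0.05 and 5.99 ± 0.07 in female controls and knockouts. Gli3 was 7.77 ± 0.13 and 7.86 ± 0.12 in males and 7.84 ± 0.04 and 7.88 ± 0.16 in females. None of the 3 was called in a knockout comparison, and the 95% interval of Gli1 with the sexes averaged ran from 86.1 to 103% of control.

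**Figure D2:**
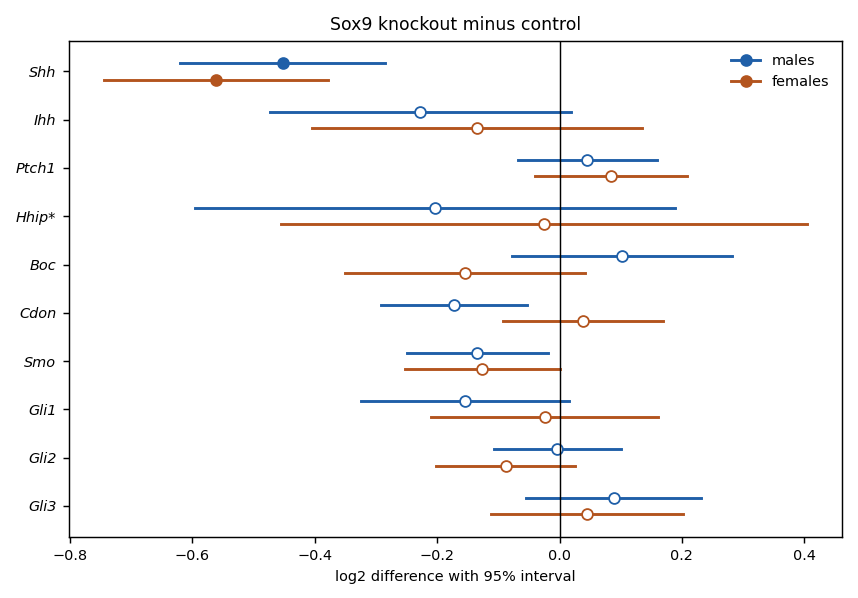
Knockout minus control difference on the log2 scale (horizontal axis) with its 95% interval for each hedgehog gene, in males and in females; filled points were called and open points were not. Only Shh is filled, at -0.45 and -0.56, and the intervals of Ptch1 lie around 0; the asterisk marks Hhip, which was fitted without the filter on dim probe sets.

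No hedgehog gene had a called difference of the knockout effect between the sexes: 0 of 9 were called by limma, against 0.00525% of all genes. An unadjusted p under 0.05 was found for 1 of 9, and for 4.04% of all genes. The male minus female effect was 0.11 (SE 0.12) for Shh, a 95% interval from -0.14 to 0.36. Cdon had the smallest p, with -0.21 (SE 0.085, unadjusted p = 0.0216, limma adjusted p = 0.997). For Boc, whose estimates had opposite signs in the sexes, it was 0.26 (SE 0.13, limma adjusted p = 0.997).

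Between the sexes, Shh was higher in males in both genotypes, while Boc was called as higher and Gli1 as lower in males among the knockouts. In controls 1 of 9 genes was called, and it was higher in males, against 6.94% of all genes called (3.27% higher and 3.67% lower). In knockouts 3 of 9 were called, 2 higher and 1 lower, against 7.19% of all genes (3.66% higher and 3.52% lower). The median difference over the 9 genes was -0.00 in controls and -0.02 in knockouts, close to the -0.01 of all genes in each.

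Every male array read higher for Shh than every female array of the same genotype, a pattern shown by 5.64% of all genes in controls and 5.82% in knockouts. The difference was 0.47 in controls (SE 0.085, limma adjusted p = 0.000722) and 0.58 in knockouts (SE 0.085, limma adjusted p = 5.99e-05), so that males had 138% and 149% of the female level. Both calls held whichever array was left out. The order of the group means was male control, male knockout, female control, female knockout. The middle 2 did not separate: male knockouts averaged 10.77 ± 0.06 and female controls 10.76 ± 0.23, and the male knockout arrays lay inside the female control range.

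Boc in knockouts ran from 8.69 to 9.03 in males (median 8.86) and read 8.38, 8.76, 8.28, 8.40 and 8.39 in females. The groups overlapped through female knockout 2 at 8.76. The difference was 0.43 (SE 0.091, limma adjusted p = 0.00341), with males at 134% of females, and it was called whichever array was left out. In controls Boc was 0.17 higher in males (SE 0.092, limma adjusted p = 0.320) and was not called. The sex difference in knockouts is not shown to exceed that in controls, since the test of that difference is the 0.26 given above.

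Gli1 ran opposite to Shh between the sexes. Male knockouts ran from 6.24 to 6.49 (median 6.39), and female knockouts read 6.70, 7.02, 6.77, 6.49 and 6.57. Every male array was below every female array, although the nearest arrays of the 2 groups both read 6.49 to 2 decimals. Among knockouts 5.82% of all genes had no overlap between the sexes. The difference was -0.33 (SE 0.086, limma adjusted p = 0.0192), with males at 79.8% of females. Among knockouts all 7 tested immune genes had lower estimates in males (median -0.15) and 6 of 7 urothelium genes did (median -0.19). The remaining urothelium gene, Psca, was called as higher in males, by 0.93. The part of these markers in the sex differences was not tested. The Gli1 call was lost without male knockout 6 (-0.30, adjusted p = 0.0520) or without female knockout 2 (-0.25, adjusted p = 0.0809). In controls, where male arrays ran from 6.30 to 6.80 and female arrays from 6.62 to 6.85, the difference was -0.20 (SE 0.087, limma adjusted p = 0.208) and -0.25 without male control 6 (adjusted p = 0.0836).

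Ptch1 was 0.14 higher in control males (SE 0.057, limma adjusted p = 0.159) and 0.10 higher in knockout males (SE 0.057, limma adjusted p = 0.387), and neither was called. Its knockout arrays did not overlap between the sexes, as for 5.82% of all genes. Cdon, Smo, Ihh, Gli2 and Gli3 differed between the sexes by -0.09 to 0.12 in either genotype and were not called. The sexes were also compared over both genotypes at once, a comparison added after the values had been seen, in which 13.6% of all genes were called. There 4 of 9 members were called: Shh 0.52 (SE 0.060, limma adjusted p = 8.7e-07), Boc 0.30 (SE 0.064, adjusted p = 0.00204), Gli1 -0.26 (SE 0.061, adjusted p = 0.00408) and Ptch1 0.12 (SE 0.041, adjusted p = 0.0448). The Ptch1 call held in only 5 of 22 fits that left out an array, those without male control 3 or 4, male knockout 6, or female control 1 or 4, and adjusted p reached 0.0964 without female control 5. The other 3 calls held in all 22.

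**Figure D3:**
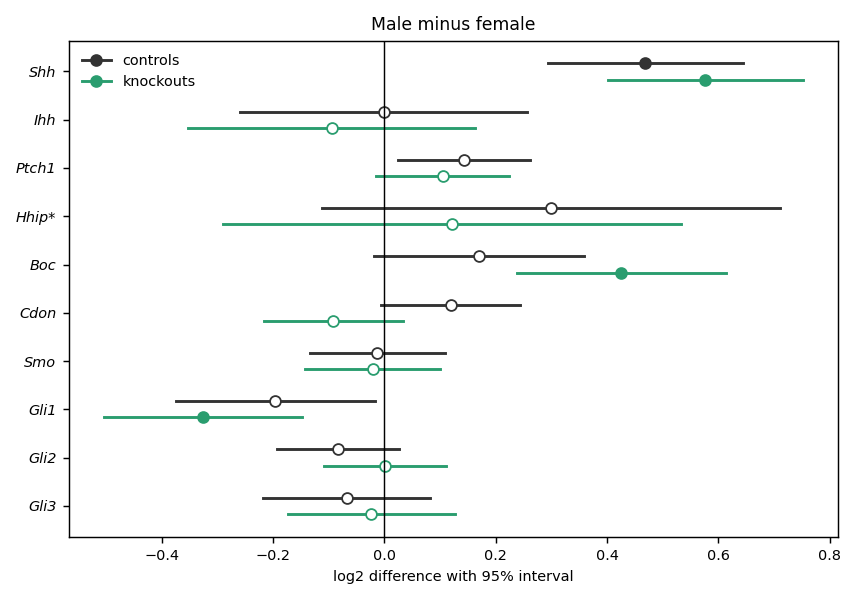
Male minus female difference on the log2 scale (horizontal axis) with its 95% interval for each hedgehog gene, in controls and in knockouts; filled points were called and open points were not. Shh lies to the right in both genotypes, Boc to the right and Gli1 to the left in knockouts; the asterisk marks Hhip, fitted without the filter on dim probe sets.

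Further genes of the pathway were taken from 5 lists, in which 62 genes were written down and 54 were tested. None of the 54 was called by limma in males, in females or with the sexes averaged, where 0.199%, 0.0315% and 0.247% of all genes were, and 2 had an unadjusted p under 0.05 in the average, as 7.19% of all genes had. These were Hhat, which attaches the fatty acid that active ligand carries (-0.12, SE 0.045, limma adjusted p = 0.499), and Sfrp1, which codes for a secreted WNT antagonist (-0.22, SE 0.082, limma adjusted p = 0.471). Scube2, a gene for a carrier that releases ligand from cells, differed by 0.26 (SE 0.13) and the third ligand gene, Dhh, by 0.07 (SE 0.053). Dhh lay close to the filter, with group means from 5.11 to 5.26 where array medians ran from 5.10 to 5.27. Of the other receptors, Gpc3 differed by -0.08, Gpc4 by 0.06 and Lrp2 by 0.12, and 5 of 7 were tested. Of the genes for signal transduction and the cilium 21 of 23 were tested, and the smallest p belonged to Iqce (-0.05), Kif7 (0.05) and Prkar1a (0.06). Among the genes not tested, Grk2, Arl13b and Ccnd1 had no probe set annotated to them alone, and Gpc5, Foxf2, Hsd11b1 and Fgf10 were dim.

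Between the sexes, some of the hedgehog target genes known from other tissues were called, in both directions. Of 14 tested, 3 were called as higher and 2 as lower in male controls, where 6.94% of all genes were called. In male knockouts 4 were called as higher and 2 as lower, where 7.19% of all genes were called, and the other members of the list were not called. The largest differences were those of Osr1 and Mycn. Osr1, a zinc finger gene of urogenital mesoderm, was 10.77 ± 0.26 in male and 9.93 ± 0.22 in female controls, and 10.66 ± 0.05 in male and 9.82 ± 0.17 in female knockouts. The difference was 0.84 in both genotypes (SE 0.11, limma adjusted p = 1.12e-05 in controls and 9.99e-06 in knockouts). There was no overlap, as for 5.64% of all genes in controls and 5.82% in knockouts. Mycn, a growth-promoting transcription factor gene, ran the other way, at 6.72 ± 0.29 in male and 7.56 ± 0.13 in female controls. Its difference was -0.84 in controls (SE 0.12, limma adjusted p = 5.22e-05) and -0.74 in knockouts (SE 0.12, limma adjusted p = 0.000190).

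Bmp4, a growth factor gene known to restrain prostatic budding, was higher in males by 0.44 in controls (SE 0.085, limma adjusted p = 0.00145) and by 0.33 in knockouts (SE 0.085, limma adjusted p = 0.0149). The knockout call was lost without female knockout 4 (adjusted p = 0.0532). Sfrp1 was lower in males by 0.50 and 0.65 in controls and knockouts, with SE 0.12 in each. Ccnd2, a cell cycle cyclin gene, was higher in males by 0.21 and 0.20, and Cdk6, a cell cycle kinase gene, was called in knockouts only, by 0.37 (SE 0.097). Whether Cdk6 differed more in knockouts than in controls is covered by the test of the effect between the sexes, which was not called.

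Outside the targets, few pathway genes were called between the sexes. In controls they were 1 of 9 tested for ligands and release, 1 of 5 other receptors and 0 of 21 for signal transduction and cilium, where 6.94% of all genes were called. In knockouts they were 1 of 9, 1 of 5 and 1 of 21, where 7.19% of all genes were called. Whether these small counts differ from those shares was not tested. Notum, a secreted enzyme gene placed on the release list, was higher in males by 0.32 in controls and 0.29 in knockouts (SE 0.081 each). Gpc3, a cell-surface proteoglycan that competes with Ptch1 for ligand, was lower in males by 0.24 and 0.32 (SE 0.058 each). Iqce, a gene for a component of the ciliary compartment through which Smo signals, was higher in male knockouts by 0.18 (SE 0.043) and differed by 0.02 in controls, where it was not called; the test of that difference was not called either (0.16, limma adjusted p = 0.997). No sign changed under any alternative, but some calls were lost: Notum in knockouts in 8 of 32 alternatives (adjusted p up to 0.0934), Ccnd2 in 3 for controls and 6 for knockouts (up to 0.0840 and 0.0694), Cdk6 in 3 (up to 0.0819) and Gpc3 in controls with median centring (0.108). The arrays whose removal ended a call were male knockouts 1, 2 and 5 and female knockouts 1, 3 and 4 for Notum. For Ccnd2 they were female controls 2 and 5, male knockout 6 and female knockouts 1, 2 and 4, and for Cdk6 male knockout 5 and female knockouts 1 and 2. Over both genotypes Prkaca (0.14, adjusted p = 0.0451), a protein kinase A subunit gene, and Prdm1 (-0.20, adjusted p = 0.0200) were called as well. Prkaca lost its call in 19 of 31 alternatives, and Prdm1 in 2 of 30, quantile normalization and median centring (adjusted p up to 0.0857).

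**Figure D4:**
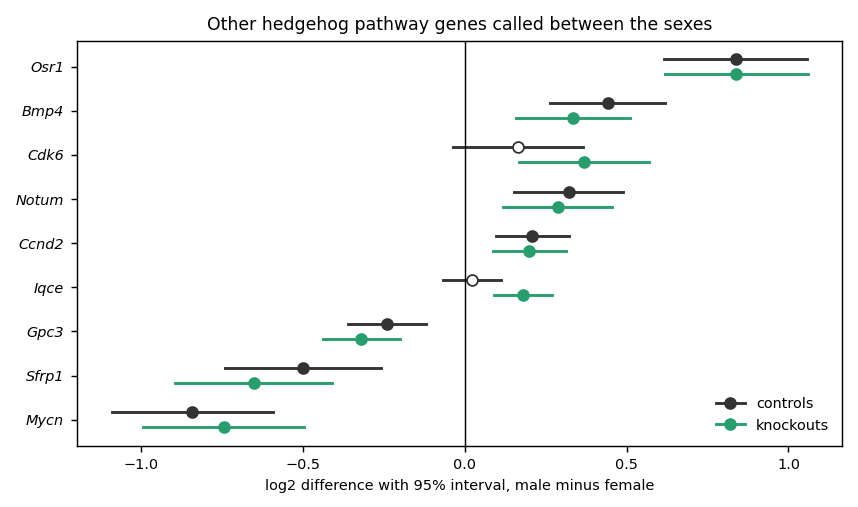
Male minus female difference on the log2 scale (horizontal axis) with its 95% interval for the 9 further hedgehog pathway genes called in controls or in knockouts; filled points were called. Osr1 lies farthest to the right and Mycn farthest to the left, at 0.84 and -0.84 in controls, and the 2 genotypes lie close together for most genes.

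Because the pathway's best known responder is the mesenchyme, the members were set against the mean of the mesenchyme markers. Group means of that list lay between 6.40 and 6.48, so it did not separate the 4 groups. Over the 22 arrays, after subtracting each group's mean, Gli1 had the highest correlation with it among the 9 members (Pearson r = 0.50, permutation p = 0.0267, Spearman rho = 0.34, permutation p = 0.130). The r of Gli1 was 0.16 without the 2 arrays farthest from the median and 0.24 without male control 6, so it rested on those arrays. For Gli2 the r was 0.36 (permutation p = 0.265), and 0.41 without the 2 farthest arrays. Without male control 6 it was 0.57, the highest of the 9 members there. No p was computed with arrays left out. Of 45 relations computed between members, or between a member and this mean, 3 had a permutation p under 0.05 by Pearson r and 4 by Spearman rho, and none passed the Benjamini-Hochberg adjustment by either. The other 2 by Pearson r were Cdon with Gli3 (r = 0.56, permutation p = 0.00564, adjusted p = 0.254, rho = 0.61, permutation p = 0.00337, adjusted p = 0.152) and Gli1 with Gli2 (r = 0.53, permutation p = 0.0246, adjusted p = 0.400, rho = 0.57, permutation p = 0.0159, adjusted p = 0.239). Without the 2 farthest arrays their r was 0.58 and 0.64. By Spearman rho they were joined by Ptch1 with Cdon (rho = 0.57, permutation p = 0.0145, adjusted p = 0.239) and Ptch1 with Gli3 (rho = 0.48, permutation p = 0.0330, adjusted p = 0.371), whose r was 0.34 and 0.36. Shh had an r of -0.35 with Gli1 and -0.30 with Ptch1, neither passing the test.

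**Figure D5:**
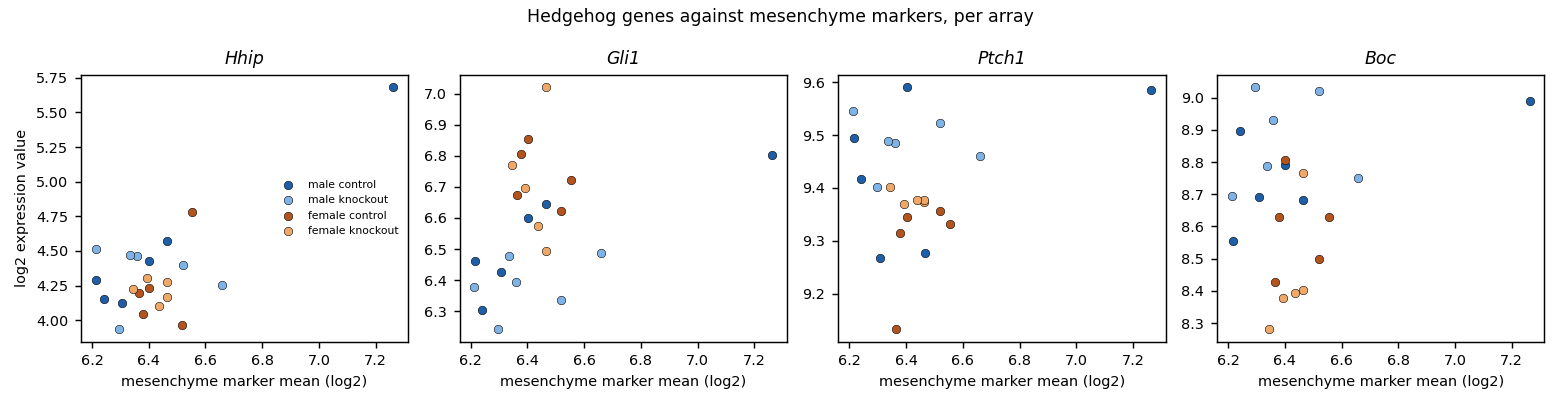
Log2 expression value of Hhip, Gli1, Ptch1 and Boc (vertical axes) against the mean log2 value of 12 mesenchyme marker genes (horizontal axes), 1 point per array, coloured by group. Male control 6 is the single point near 7.26 on the horizontal axis; it is the highest array for Hhip and among the higher ones for the other 3 genes.

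Male control 6 read 6.80 for Gli1, 8.99 for Boc and 9.59 for Ptch1, and it was the highest male control for Gli1 and Boc. Leaving it out kept the call of Shh in males (-0.44, adjusted p = 0.0332). Male control 6 is in neither group of the comparison between the sexes in knockouts. Leaving it out could therefore change only the shared spread there, and it does not test the calls of Boc and Gli1. A further fit took as covariate the mean of the 10 mesenchyme genes above the filter, without Prrx1 and Postn. There Gli1 differed between the sexes in knockouts by -0.33 (SE 0.076, limma adjusted p = 0.00730) and Boc by 0.42 (SE 0.087, adjusted p = 0.00268). The mean of all 12 mesenchyme genes was 6.40 in male and 6.42 in female knockouts, so such a covariate could move these estimates little. Single mesenchyme genes differed between these groups by -0.28 to 0.57, and 1 of the 10 tested was called, as higher in males. Their part in the sex differences was not tested.

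The genes whose array-to-array variation was most like that of a member were listed by Pearson r over the 22 arrays after group means were subtracted, among 14178 genes. For Shh these were Nr4a2 (r = 0.80), Axin2 (0.78), Fam32a (0.77), Adtrp (0.77) and Fmo6 (0.76). For Ptch1 they were Alg6 (0.79), Erc1 (0.74), Igf2 (0.72), Sema3e (0.72) and Zfp639 (0.71, and 0.64 without male control 6). For Gli1 the list was Col5a1 (0.84), Cyp2d22 (0.84), Kcnn3 (0.79), Mrc2 (0.77, and 0.70 without male control 6) and Tvp23a (0.76), of which Col5a1, a fibrillar collagen gene, kept an r of 0.81 without that array. For Smo it was Zfp382 (0.76), Atp9a (0.72), Tsga10ip (0.72), Klk1b5 (0.71) and Limd2 (0.71). These are the highest of many correlations and are given as a description. None of the other hedgehog members was among them.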

How the data were processed

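RNA from 22 samples of urogenital sinus epithelium was biotin-labelled and hybridised to Affymetrix whole-transcript arrays, per the labels' protocols. The authors deposited a table of log2 values for 72688 probe sets, of which 65770 are transcript clusters. The log2 scale was read from the values (1.59 to 14.23), and array medians ran from 5.10 to 5.27. How probes were normalized and summarized is not given in the sources used here, and whatever was done sets the common level on which small differences rest. Values were used as deposited. The table names no genome build.

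Probe sets with exactly 1 gene symbol (827 symbols updated through gene identifiers) were kept if above the array's median of transcript clusters on at least 5 arrays. The probe set with the highest mean stood for a gene. Group means of all 22 arrays were fitted in limma 3.58.1 (R 4.3.3) with default eBayes (18 residual and 4.34 prior degrees of freedom). The labels give no litter or scan date, so no covariate was fitted. The median SE was 0.065 in males and 0.071 in females, and the number of arrays limits this precision. No 2 arrays shared more than 0.0334% of values. The fit was tested on simulated data.

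The members and lists were chosen with earlier results of these data known. Named genes were all members, Sox9, every called gene of each pathway list or else up to 3 of smallest p in the averaged knockout comparison, and the 5 genes most like Shh, Ptch1, Gli1 and Smo (predicted genes left out). In the endothelium marker list 4 of 8 genes were dim. Of the listed pathway genes 1 is not reported here. Correlations used 100000 permutations within groups. Alternatives were quantile normalization, median centring, no filter, averaging a gene's probe sets, a stricter filter (75th percentile) and robust eBayes with a trend. Others were only the groups compared, the replicate block, array weights, the mesenchyme mean as a covariate and leaving out each array. That covariate was the mean of the 10 mesenchyme genes above the filter. Figures were drawn with matplotlib 3.10.9.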

Additional observations from a re-analysis of the deposited data

Results flagged for a closer look

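Of 44 sets of values (the 10 hedgehog genes and Sox9 in 4 groups), 5 held an array far from the rest of its group, measured by its gap to the nearest array as a share of the range. Chance alone marks about 1 in 20 such sets. Hhip in male control 6 read 5.69, while the other 5 male controls ran from 4.13 to 4.57, and this array also had the raised mesenchyme and smooth muscle means. Female knockout 2 was marked for 2 genes, as the highest of its group for Smo (9.24, others 9.04 to 9.09) and for Boc (8.76, others 8.28 to 8.40). It was also the highest female knockout for Gli1, at 7.02. Without female knockout 2 the Boc difference between the sexes in knockouts was 0.51 (limma adjusted p = 0.000462) and that of Gli1 was -0.25 (limma adjusted p = 0.0809). Ptch1 in female control 5 was the lowest of its group at 9.13, with the others between 9.31 and 9.36. Ptch1 in female knockout 3 was the highest of its group at 9.40, with the others between 9.37 and 9.38, a gap that is small in itself and is marked because the group's SD was 0.01.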

How the results depend on the processing

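Over 63 results (9 members in 7 comparisons), 1975 comparisons with an alternative gave 1900 with the same direction and side of the threshold, 29 that lost a call, 0 that gained one and 46 in which the sign turned. The turned signs belong to 13 results that were not called in any setting, with sizes up to 0.048. The number of members called in the female knockout comparison was 0 with only the arrays compared, and from 0 to 1 when single arrays were left out. In males it was 0 with array weights. The Ptch1 difference between the sexes over both genotypes lost its call with median centring (adjusted p = 0.0640), no filter (0.0670) and the mesenchyme covariate (0.0517). Gli1 exceeded the 75th percentile on 2 arrays and Gli2 on 0, so neither was tested with that stricter filter.

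With the replicate block Shh differed by -0.45 in males (adjusted p = 0.00348) and -0.56 in females (adjusted p = 0.00173), and Ptch1 between the sexes over both genotypes by 0.12 (adjusted p = 0.126), the 1 call of a member that the block ended. The labels share replicate numbers across groups without stating a common source. Deviations of same-numbered arrays correlated between -0.42 and 0.28, not above 0.1 in every pair, so the numbers were not taken as pairs.

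Counts over all genes set the background. They moved from 38 to 20 in males with only the arrays compared. In females they moved from 6 to 3 with median centring, 11 with array weights and 2 without female control 3. With the sexes averaged, array weights moved 47 to 72. The 1 gene called for the effect between the sexes became 0 or 2. Median centring changed the split of higher and lower genes between control sexes from 623 and 699 to 584 and 363, and over both genotypes from 1244 and 1342 to 1243 and 787. Causes were not tested. Hhip was above the array's median on 1 array, so its differences come from a fit without the filter.

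The turned signs were these. For male against female controls, Ihh was 0.026 with quantile normalization, 0.037 with median centring, 0.052 with the replicate block and 0.0018 with the mesenchyme covariate, and Smo 0.026 with median centring. Over both genotypes Smo was 0.011 with median centring and Ihh 0.0054 with the replicate block. With array weights and with the mesenchyme covariate Gli2 was 0.0076 and 0.0053 in the male knockout comparison, and -0.00091 and -0.00088 between knockout sexes. With array weights the effect of Smo between the sexes was 0.029. Leaving out single arrays gave these ranges. In the knockout comparison Gli2 ran from -0.035 to 0.024 in males, and in females Gli1 from -0.10 to 0.030 and Gli3 from -0.015 to 0.081. Between control sexes Ihh ran from -0.068 to 0.090 and Smo from -0.046 to 0.022. Between knockout sexes Gli2 ran from -0.029 to 0.018, Gli3 from -0.060 to 0.036 and Smo from -0.043 to 0.013. The effect between the sexes ran from -0.073 to 0.0024 for Ptch1 and from -0.043 to 0.026 for Smo. Over both genotypes Cdon ran from -0.0019 to 0.041 and Smo from -0.033 to 0.00074.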
